A study of Mus musculus with 7 samples.

Results

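The genes described here carry the mouse family names Rnf (RING finger) and Trim (tripartite motif), which are mostly given to RING-type ubiquitin ligases. They were expressed in alveolar macrophages, the phagocytes that live in the air sacs of the lung. The choice used names, and a RING was not checked in each protein, so ligase is used below for any gene of these families. Members were chosen by level: they were the protein-coding genes of the expression table named Rnf or Trim followed by a number whose mean over the 7 libraries was at least 1 TPM (a length-scaled share of the library's transcripts). That rule kept 95 of 149 such genes, 58 of 82 Rnf genes and 37 of 67 Trim genes. Of the 54 genes under the minimum, 27 were listed at 0 in every library. Because the mean level chose the members, levels are given as a description.

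Poly(A) RNA was sequenced from cells carrying CD11c, F4/80 and SiglecF on their surface, according to the labels. In 3 libraries the floxed alleles of Siah1a and Siah2 were combined with Cre expressed from the lysozyme M gene (labelled cSiah1a/2f/f::Lyz2cre, here Lyz2cre). In 1 library the same alleles were combined with Cre under the CD11c promoter (labelled cSiah1a/2f/f::CD11ccre, here CD11ccre). The other 3 libraries were labelled wild type (WT), without a statement of whether they carried Cre or floxed alleles. Cre libraries below are those whose labels name a Cre. The lysozyme M gene is active in several kinds of myeloid cell and the CD11c promoter also in dendritic cells, so neither Cre is restricted to alveolar macrophages. Age and sex are not given in the labels used here. Whether the replicates were separate animals is not stated, so p-values measure the spread between these libraries only.

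Ubiquitin ligases of the RING type hold a ubiquitin-loaded E2 enzyme and a substrate close together, and the E2 passes ubiquitin directly to the substrate. Siah1a and Siah2 are small RING ligases of this kind that send their substrates to the proteasome. Rnf and Trim proteins make up much of the remaining RING ligases of a mammalian cell. In macrophages several of them are known as regulators of viral RNA sensing and NF-kappaB signalling. Whether the mRNAs of these other ligases differed once Siah1a and Siah2 were deleted is the comparison made here.

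Both targeted genes were low in the Cre libraries. Siah1a was listed at 0, 0 and 0.05 TPM in Lyz2cre and at 0 TPM in CD11ccre, against 16.59, 6.72 and 13.35 TPM in WT. Siah2 stood at 1.95, 1.45 and 1.5 TPM in Lyz2cre and at 1.21 TPM in CD11ccre, against 13.56, 12.69 and 17.33 TPM in WT. Between 10883 and 11518 genes reached 1 TPM per library, and the depth is unknown because TPM does not keep it. The transcripts of Ftl1, Fth1, Chil3 and Lyz2 together took 14.5% to 16.3% of the TPM in Lyz2cre and 19.1% in CD11ccre, against 4.91% to 5.30% in WT, and a larger share for them lowers the TPM of other genes. Mitochondrially encoded transcripts stood apart the other way, with 2.67% to 4.61% in Lyz2cre and 4.23% in CD11ccre, against 7.54% to 9.25% in WT. Lyz2 itself stood at 46.62 to 61.89 TPM in Lyz2cre and at 50676.05 TPM in CD11ccre, against 72.56 to 86.25 TPM in WT. The WT level was thus near that of Lyz2cre and far below that of CD11ccre. Whether the WT mice carried Cre in the lysozyme M gene is not stated and was not tested, so WT cannot be taken as free of Cre. CD11ccre and WT therefore differed in more than the labelled deletion. The summed level of 10 alveolar macrophage markers was 60100 to 75700 TPM in Lyz2cre and at 68600 TPM in CD11ccre, against 23400 to 26500 TPM in WT, and all 10 reached 1 TPM in some library. Sums of 5 dendritic cell markers were 0.52 to 4.02 TPM in Lyz2cre and at 1.96 TPM in CD11ccre, against 5.01 to 23.8 TPM in WT. For 5 B and plasma cell markers the sums were 0.30 to 2.71, 1.65 and 6.78 to 17.6 TPM in Lyz2cre, CD11ccre and WT, and for 3 monocyte markers 1.18 to 1.68, 0.60 and 2.98 to 10.7 TPM. For 4 neutrophil markers they were 89.6 to 128, 93.7 and 26.3 to 64.8 TPM, with Ly6g at 0 in every library. The T and NK cell sums stayed at or under 2.76 TPM, and those of 3 endothelial markers at or under 1.35 TPM. For 5 alveolar type 2 markers the sums were 28.1 to 49.5, 35.2 and 17.2 to 30.1 TPM in Lyz2cre, CD11ccre and WT. For 3 club and ciliated cell markers they were 90.0 to 268, 199 and 110 to 202 TPM. The alveolar macrophage markers include Chil3, 1 of the 4 abundant genes above. The part of these marker differences in the results on the ligases was not tested, and in bulk libraries fewer cells of a type and less RNA per cell cannot be told apart.

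Few of the ligase mRNAs passed a test between genotypes, and their unscaled total was lowest in CD11ccre. The members together took 2561, 2532 and 2415 TPM in Lyz2cre and at 2214 TPM in CD11ccre, against 2827, 2664 and 2560 TPM in WT. The Lyz2cre sums averaged 2503 ± 77 TPM and the WT sums 2684 ± 134 TPM (SD, n = 3 each), and 1 Lyz2cre library lay just above the lowest WT library. Most genes had lower TPM in the Cre libraries, so the lower sums do not set the members apart. Over all genes tested the median log2 fold change from WT was -0.16 in Lyz2cre and -0.29 in CD11ccre. Over the members it was -0.15 and -0.30. Between 91 and 95 members reached 1 TPM in each library. Levels were unequal among them: 81 members averaged at least 5 TPM, 12 at least 50 TPM and 5 at least 100 TPM, and the top 10 held 48% of the summed mean level. Just inside the minimum were Trim30b with a mean of 2.04 TPM, Trim62 with 1.72 TPM and Rnf24 with 1.15 TPM. Just outside it were Trim45 and Trim7, each with 0.766 TPM, and Rnf17 with 0.689 TPM.

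**Figure D1:**
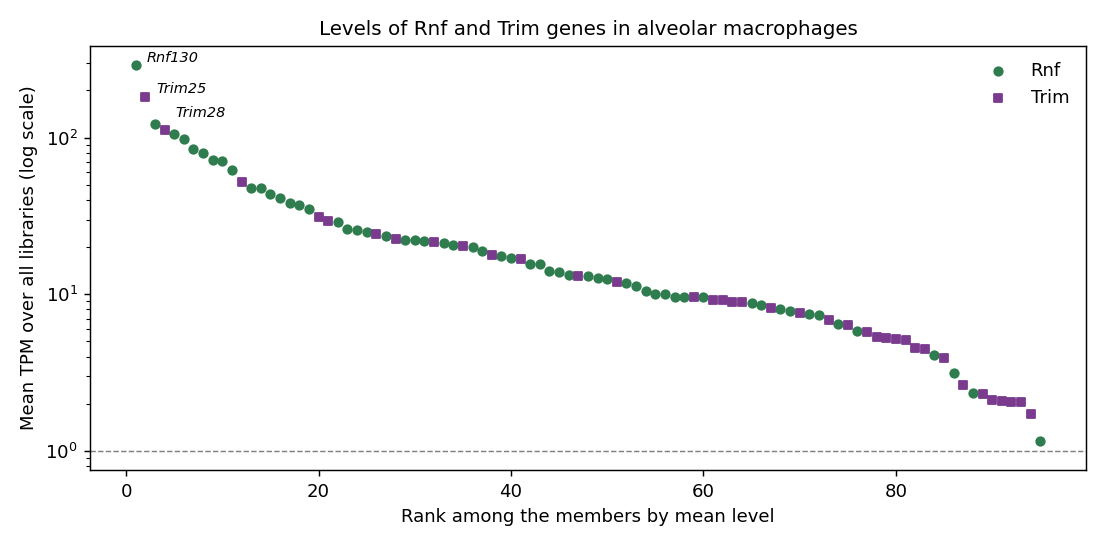
Mean TPM over all 7 libraries (log axis) of the 95 members, ranked from highest to lowest, with Rnf genes as green circles and Trim genes as purple squares. The dashed line is the minimum of 1 TPM. Rnf130 leads with a mean of 290 TPM, and Trim25 and Trim28 are the Trim genes among the first 5.

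Rnf130, a transmembrane ligase homologous to fly Goliath, was the most abundant member. It stood at 257.75, 274.28 and 271.81 TPM in Lyz2cre and at 268.52 TPM in CD11ccre, against 322.33, 314.16 and 324.18 TPM in WT. Every Cre library lay below every WT library, and the difference between Lyz2cre and WT was small (log2 fold change -0.26 ± 0.09 SE) and did not pass the test (limma, adjusted p = 0.132). The second was Trim25, which modifies the viral RNA sensor RIG-I, with 218.96, 199.96 and 179.46 TPM in Lyz2cre and at 159.06 TPM in CD11ccre, against 176.15, 180.69 and 166.97 TPM in WT. The Lyz2cre and WT libraries of Trim25 overlapped. Next came Rnf13 with a mean over all libraries of 123 TPM, Trim28 with 112 TPM, Rnf187 with 105 TPM and Rnf149 with 98.5 TPM. Rnf10 averaged 85.1 TPM, Rnf7 79.6 TPM, Rnf181 72.4 TPM and Rnf220 70.8 TPM. These are length-scaled levels, and neighbours in this order such as Rnf181 and Rnf220 differed by less than the spread between libraries.

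In Lyz2cre against WT, 1 member rose and 2 fell. Rnf128 rose, and Trim28 and Rnf113a2 fell. These 3 calls are 3.16% of the 95 members, whereas 771 of all 11397 genes tested were called (6.76%), so the share among the members was below the background. By direction, 1.05% of the members were called higher, against 2.17% of all genes, and 2.11% lower, against 4.60% of all genes. At an unadjusted p under 0.05, 17 members (17.9%) passed, 3 higher and 14 lower, against 24.6% of all genes. All 3 Lyz2cre libraries lay above all WT libraries for 6 members (6.32%; all genes 7.45%) and below them for 18 members (18.9%; all genes 23.3%). The median log2 fold change of the members was -0.15, beside -0.16 over all genes tested. Median-of-ratios scaling divides each library by the median ratio of its genes to their geometric mean over the libraries. It moved both median log2 fold changes to 0.00. The members then split into 49 positive and 46 negative, in place of 34 positive and 61 negative. Over all genes that scaling called 340 higher and 205 lower, in place of 247 higher and 524 lower. A single member's direction is therefore best read against a shift of about -0.16 on the log2 scale. For 76 of the 95 members the 95% interval of the log2 fold change lay within -1 and 1.

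Trim28, also known as KAP1, is the corepressor that KRAB zinc finger proteins recruit to silence retroelements and other loci. It stood at 96.03, 93.74 and 87.80 TPM in Lyz2cre and at 69.18 TPM in CD11ccre, against 156.22, 146.87 and 135.36 TPM in WT. The 4 Cre libraries all lay below the lowest WT library, and the 3 Lyz2cre libraries were close to each other. The mean was 92.5 ± 4.25 TPM in Lyz2cre and 146 ± 10.4 TPM in WT (SD, n = 3 each), 1.58-fold lower in Lyz2cre. In limma the log2 fold change was -0.65 ± 0.11 (SE; 95% interval -0.91 to -0.40; adjusted p = 0.0171), and -0.47 with median-of-ratios scaling (adjusted p = 0.0437). A two-sided exact permutation test on mean TPM gave p = 0.1, the smallest that 3 libraries against 3 allow, here and for Rnf128 and Rnf113a2. CD11ccre against WT, with the same WT libraries, gave -1.07 (95% interval -1.42 to -0.71; adjusted p = 0.0200). The Lyz2cre call ended when any 1 of the 6 Lyz2cre and WT libraries other than WT replicate 3 was left out, with adjusted p of 0.0557 without WT replicate 1, 0.0612 without WT replicate 2, and 0.0553, 0.0611 and 0.0745 without Lyz2cre replicates 1, 2 and 3. Without the variance trend it ended too (0.0537), making 6 of 18 alternatives. The CD11ccre call ended with any of 4 libraries removed, with adjusted p of 0.0597 and 0.0681 for the first and second WT libraries and 0.0511 and 0.05 for the first and second Lyz2cre libraries, and also without the trend (0.0617) and with the replicate number as a block (0.0769). Trim28 lies on chromosome 7 (12999114 to 13031035, plus strand, GRCm38), and its exons overlap those of no other gene in GENCODE M21.

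Rnf128, a transmembrane ligase of endosomes also called GRAIL and best known for T cell anergy, moved the other way. It stood at 18.05, 16.12 and 25.61 TPM in Lyz2cre and at 15.07 TPM in CD11ccre, against 9.92, 7.81 and 4.41 TPM in WT. Every Cre library lay above every WT library. The mean was 19.9 ± 5.02 TPM in Lyz2cre and 7.38 ± 2.78 TPM in WT (SD, n = 3 each), 2.7-fold higher in Lyz2cre. The log2 fold change was 1.35 ± 0.30 (SE; 95% interval 0.66 to 2.05; limma, adjusted p = 0.0406), and 1.52 with median-of-ratios scaling (adjusted p = 0.0344). In CD11ccre the difference from WT was 1.00 (95% interval 0.02 to 1.98) and did not pass (adjusted p = 0.217). The Lyz2cre call ended without any 1 of the 6 Lyz2cre and WT libraries (adjusted p from 0.0659 to 0.143), and with no filter on low values (0.117), without the trend (0.0697) and with the replicate block (0.0910). The gene lies on chromosome X (139563316 to 139673145, plus strand). Like Rnf128, the marker sums of alveolar macrophages and of neutrophils were higher in every Cre library than in every WT library. For alveolar macrophages they were 60100 to 75700 TPM in Lyz2cre and 68600 TPM in CD11ccre, against 23400 to 26500 TPM in WT. For neutrophils they were 89.6 to 128, 93.7 and 26.3 to 64.8 TPM, with Ly6g at 0 in every library. The sums of dendritic cells, B and plasma cells and monocytes were lower in every Cre library than in every WT library. Those of alveolar type 2 cells and of club and ciliated cells overlapped between Lyz2cre and WT. The part of any of these sums in the result was not tested.

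Rnf113a2 is a short gene of 1383 exonic bases on chromosome 12 (84417196 to 84418578, plus strand), and human RNF113A is a component of the spliceosome. It stood at 4.78, 6.43 and 6.13 TPM in Lyz2cre and at 8.75 TPM in CD11ccre, against 12.07, 19.17 and 10.41 TPM in WT. The groups did not overlap, with CD11ccre between them. The mean was 5.78 ± 0.879 TPM in Lyz2cre and 13.9 ± 4.65 TPM in WT (SD, n = 3 each), 2.40-fold lower in Lyz2cre. The log2 fold change was -1.10 ± 0.25 (SE; 95% interval -1.69 to -0.51; limma, adjusted p = 0.0459), but -0.93 with median-of-ratios scaling, where the call ended (adjusted p = 0.0964). It also ended without any 1 of the 6 Lyz2cre and WT libraries (adjusted p from 0.0623 to 0.143), and in all under 13 of 18 alternatives. Its paralogue Rnf113a1 stood at 2.91, 2.38 and 1.86 TPM in Lyz2cre and at 0.97 TPM in CD11ccre, against 2.19, 2.64 and 3.47 TPM in WT, with overlapping groups. None of the 75-base windows of Rnf113a2 transcripts occurs in Rnf113a1, so reads of 75 bases without mismatches can be told apart.

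The 150 bases upstream of the RefSeq start sites (GRCm38.p6) are shown for Trim28 and Rnf128, the members that fell and rose with the smallest p in each direction, with CG dinucleotides in capitals. The Trim28 stretch (chr7:13024002-13024151, plus strand) holds 12 of them and the Rnf128 stretch (chrX:139610470-139610619, plus strand) holds 16.
Trim28: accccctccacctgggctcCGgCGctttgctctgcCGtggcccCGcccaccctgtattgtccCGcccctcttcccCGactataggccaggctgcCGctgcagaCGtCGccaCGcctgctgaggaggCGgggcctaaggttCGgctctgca
Rnf128: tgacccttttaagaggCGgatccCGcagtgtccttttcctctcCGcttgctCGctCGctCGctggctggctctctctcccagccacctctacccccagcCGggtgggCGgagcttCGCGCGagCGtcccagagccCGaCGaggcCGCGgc
Both starts are rich in CG, as are those of the members in general. RefSeq gave 97 promoters (250 bases before to 50 after the start) for 74 of the members, with a median of 20 CG dinucleotides, against 7 over all 32851 promoters of the table. The members were filtered by level and the 32851 promoters were not, so a trait of these families cannot be read from this difference. The whole Trim28 and Rnf128 promoters hold 23 and 26.

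The 5 uncalled members with the largest changes all had lower means in Lyz2cre. Trim68, a tripartite motif ligase of low level, stood at 1.35, 1.44 and 0.88 TPM in Lyz2cre and at 1.14 TPM in CD11ccre, against 3.84, 3.38 and 4.21 TPM in WT. Its groups stood well apart, and its log2 fold change of -1.12 ± 0.27 (SE; 95% interval -1.75 to -0.49) just missed the threshold (adjusted p = 0.0526). The call was gained with a pseudocount of 5 (0.0495), with protein-coding genes only (0.0283), without the variance trend (0.0250) and without the CD11ccre library (0.0492). Trim65, which ubiquitinates the viral RNA sensor MDA5, stood at 4.49, 4.38 and 4.48 TPM in Lyz2cre and at 5.92 TPM in CD11ccre, against 10.02, 6.96 and 12.00 TPM in WT. Its log2 fold change was -0.94 ± 0.23 (SE; 95% interval -1.47 to -0.41; adjusted p = 0.0525), and it passed with protein-coding genes only (0.0299) and with robust fitting (0.0467). Trim47 overlaps Trim65 in exons of the same strand on chromosome 11, so the reads of the pair are partly uncertain. It stood at 18.23, 19.32 and 12.44 TPM in Lyz2cre and at 23.83 TPM in CD11ccre, against 37.18, 27.12 and 20.69 TPM in WT (log2 fold change -0.72, adjusted p = 0.138). Rnf138, a ligase of DNA end resection, stood at 12.35, 9.73 and 12.67 TPM in Lyz2cre and at 9.33 TPM in CD11ccre, against 18.35, 16.91 and 19.40 TPM in WT (log2 fold change -0.62, adjusted p = 0.0659). Rnf126, which works with BAG6 on mislocalized proteins, stood at 12.13, 17.19 and 12.46 TPM in Lyz2cre and at 11.98 TPM in CD11ccre, against 21.45, 25.06 and 18.69 TPM in WT (log2 fold change -0.61, adjusted p = 0.102). In each of the 5 genes all Lyz2cre libraries lay below all WT libraries.

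**Figure D2:**
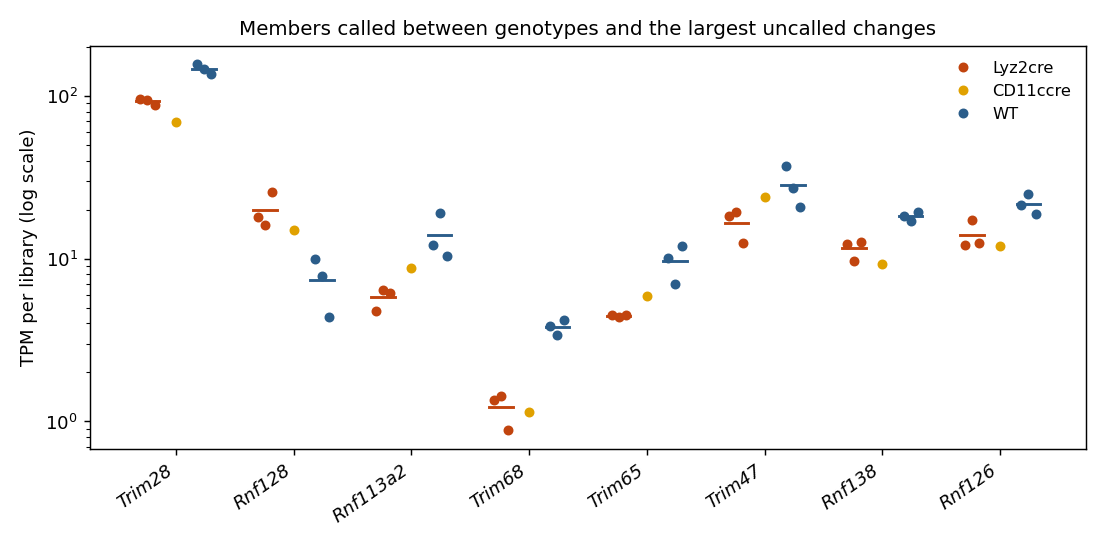
TPM per library (log axis) of the 3 members called in Lyz2cre against WT and of the 5 uncalled members with the largest changes, with Lyz2cre in red, CD11ccre in yellow and WT in blue. Points are libraries and bars are means of 3 libraries. Lyz2cre and WT do not overlap in any of the 8 genes, and Rnf128 alone is higher in Lyz2cre.

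In CD11ccre against WT, 0 members rose and 1 fell, Trim28. This is 1.05% of the members, against 2.89% of all genes tested (0.895% higher and 1.99% lower). The lone CD11ccre library was assumed to vary like the other groups, and the comparison shares its WT libraries with the one above. At an unadjusted p under 0.05, 18 members passed (18.9%; all genes 22.3%), and Rnf128 was the 1 of these that was higher. The CD11ccre value lay below all WT libraries for 52 members (54.7%; all genes 50.5%) and above them for 10 (10.5%; all genes 13.0%). The median log2 fold change was -0.30 over the members and -0.29 over all genes. Among the uncalled members, Rnf138 had a log2 fold change of -0.89 (adjusted p = 0.0833) and Rnf8 one of -1.05 (adjusted p = 0.0870). Only for 35 of the 95 members did the 95% interval lie within -1 and 1, so larger differences were not bounded as closely as in Lyz2cre.

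Between the Cre lines no member was called (0 of 95; all genes 0.114%). At an unadjusted p under 0.05, 5 members passed in limma (5.26%; all genes 6.10%), and all 5 were lower in CD11ccre. They were Trim28 (log2 fold change -0.41), Rnf8 (-0.76), Trim27 (-0.70), Rnf103 (-0.53) and Rnf40 (-0.69), with adjusted p from 0.808 to 0.817. Rnf40, which with Rnf20 ubiquitinates histone H2B, stood at 18.48 TPM in CD11ccre, against 29.21, 38.64 and 24.95 TPM in Lyz2cre. Trim27 stood at 18.11 TPM in CD11ccre, against 30.98, 25.49 and 33.97 TPM in Lyz2cre. In both genes the CD11ccre library lay below every Lyz2cre library. Lower was also the common direction over all genes, with 4.88% lower and 1.22% higher in CD11ccre at an unadjusted p under 0.05 in limma. Of the 95 members, 69 had a negative log2 fold change between the Cre lines, and 50 after median-of-ratios scaling. The share of all genes with CD11ccre below every Lyz2cre library was not counted.

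By role, 59 members fell into 8 groups, and only 2 of these groups held a call. The counts of all groups are best read beside the shares over all genes tested. In Lyz2cre 6.76% of all genes were called and 24.6% had an unadjusted p under 0.05 in limma. For CD11ccre these shares were 2.89% and 22.3%. No test of the groups was made. The first group with a call holds the PA-domain ligases, which sit in membranes of endosomes and lysosomes with the RING facing the cytosol. Of its 5 members tested, 1 rose (Rnf128), 0 fell and 4 were not called, with 3 at an unadjusted p under 0.05 and a median log2 fold change of 0.08. Rnf13 stood at 141.76, 99.91 and 138.44 TPM in Lyz2cre and at 119.04 TPM in CD11ccre, against 124.86, 101.72 and 131.89 TPM in WT. The groups overlapped over their whole range (log2 fold change 0.08, adjusted p = 0.836), although Rnf13 lies on chromosome 3, 840 kb from the deleted Siah2, closer than any other member. Rnf149 stood at 113.14, 93.45 and 107.67 TPM in Lyz2cre and at 87.03 TPM in CD11ccre, against 105.83, 97.57 and 84.92 TPM in WT, also overlapping. Rnf167, a lysosomal ligase, stood at 22.23, 20.77 and 19.04 TPM in Lyz2cre and at 23.91 TPM in CD11ccre, against 31.88, 27.83 and 29.68 TPM in WT. All Cre libraries of Rnf167 lay below WT, with a log2 fold change of -0.51 in Lyz2cre (adjusted p = 0.0659) that passed with protein-coding genes only (0.0465).

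The chromatin and transcription ligases held the other call. Of 6 members tested, 0 rose, 1 fell (Trim28) and 5 were not called, with a median log2 fold change of -0.25 in Lyz2cre and -0.51 in CD11ccre. Rnf20 stood at 22.70, 22.32 and 22.24 TPM in Lyz2cre and at 20.69 TPM in CD11ccre, against 22.73, 30.49 and 24.00 TPM in WT. Its partner Rnf40 had a log2 fold change of opposite sign in Lyz2cre (0.32, against -0.18 for Rnf20), and neither passed (adjusted p = 0.349 and 0.509). Rnf2, the catalytic RING subunit of Polycomb repressive complexes, stood at 11.90, 13.88 and 16.60 TPM in Lyz2cre and at 11.89 TPM in CD11ccre, against 7.74, 10.02 and 15.34 TPM in WT. Its Lyz2cre and WT libraries overlapped, as did those of Trim33 and Trim24, the relatives of Trim28. In CD11ccre, Trim33 stood at 6.31 TPM and Trim24 at 2.29 TPM, each below all its WT libraries. Their log2 fold changes there were -0.65 and -1.0, and neither was called. The CD11ccre library lay below all WT libraries for 50.5% of all genes.

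Ligases of DNA damage repair and SUMO-targeted degradation had the lowest median of the role groups, -0.35 in Lyz2cre and -0.76 in CD11ccre, with all 6 members negative in both. Most genes were negative on this scale, 7636 of 11397 in Lyz2cre and 8339 of 11397 in CD11ccre. An unadjusted p under 0.05 in limma was found for 24.6% of all genes in Lyz2cre and 22.3% in CD11ccre. With 6 members the counts are a description. In limma 0 of 6 rose or fell in either comparison, with 2 at an unadjusted p under 0.05 in Lyz2cre and 4 in CD11ccre. Rnf4, which ubiquitinates SUMO-modified proteins, stood at 61.79, 51.17 and 60.84 TPM in Lyz2cre and at 45.74 TPM in CD11ccre, against 73.51, 68.86 and 70.93 TPM in WT. Its libraries did not overlap, and its log2 fold change of -0.30 did not pass (adjusted p = 0.189). Rnf8, an early ligase at DNA double-strand breaks, stood at 16.51, 17.26 and 16.38 TPM in Lyz2cre and at 9.49 TPM in CD11ccre, against 25.36, 22.28 and 15.59 TPM in WT. Rnf111, another SUMO-targeted ligase, stood at 12.58, 11.51 and 10.02 TPM in Lyz2cre and at 8.26 TPM in CD11ccre, against 15.51, 12.99 and 21.53 TPM in WT. With median-of-ratios scaling the group's median was -0.19 in Lyz2cre and -0.45 in CD11ccre. Of the windows of Rnf8 transcripts, 12.6% also occur in another annotated gene, so its reads are partly uncertain.

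**Figure D3:**
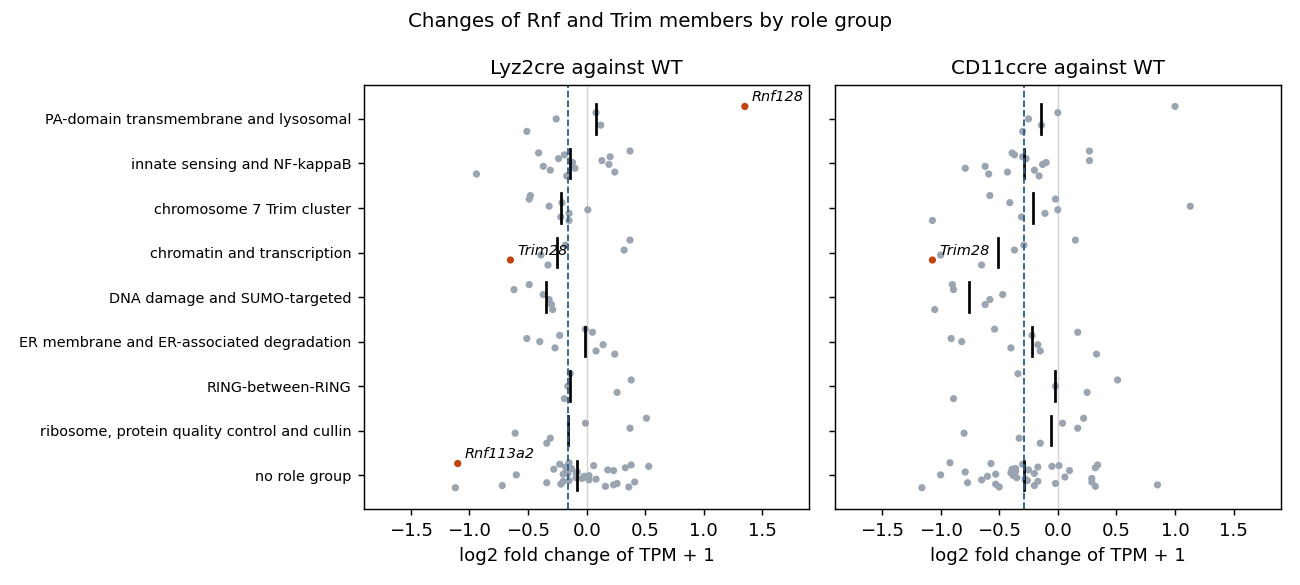
Log2 fold change of TPM + 1 of each member by role group, for Lyz2cre against WT (left) and CD11ccre against WT (right). Grey points are uncalled members, red points are called members, black bars are group medians and the dashed line is the median of all genes tested, -0.16 on the left and -0.29 on the right. Rnf128, Trim28 and Rnf113a2 are called in Lyz2cre, and Trim28 is called in CD11ccre.

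Among 14 members of the innate sensing and NF-kappaB signalling group, 0 rose and 0 fell in Lyz2cre. In limma 1 of them had an unadjusted p under 0.05 (Trim65), and the median log2 fold change was -0.15. In CD11ccre also none was called, with 2 at an unadjusted p under 0.05. Rnf11, part of the A20 ubiquitin-editing complex, stood at 47.86, 45.35 and 44.65 TPM in Lyz2cre and at 42.94 TPM in CD11ccre, against 36.19, 28.98 and 42.24 TPM in WT. All Cre libraries of Rnf11 lay above WT, and its log2 fold change of 0.37 did not pass (adjusted p = 0.206). Trim26 stood at 23.82, 33.37 and 27.38 TPM in Lyz2cre and at 23.19 TPM in CD11ccre, against 35.56, 43.15 and 31.09 TPM in WT, with overlapping Lyz2cre and WT libraries. Trim27 averaged 30.1 ± 4.30 TPM in Lyz2cre and 32.4 ± 5.68 TPM in WT (SD, n = 3 each). Rnf31, the catalytic subunit of the linear ubiquitin assembly complex, stood at 15.45, 10.77 and 8.15 TPM in Lyz2cre and at 7.60 TPM in CD11ccre, against 8.51, 9.32 and 11.03 TPM in WT, and the libraries overlapped. Its exons overlap those of Irf9 on the same strand. Rnf135, which like Trim25 acts on RIG-I, had the widest relative spread of any member in Lyz2cre, with 10.44, 5.99 and 3.51 TPM in Lyz2cre, 6.21 TPM in CD11ccre and 9.80, 8.43 and 7.24 TPM in WT.

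A cluster of Trim genes on chromosome 7 held 8 members within 289 kb (104218793 to 104507849), in the order Trim6, Trim34a, Trim5, Trim12a, Trim12c, Trim30b, Trim30a and Trim30d. This rapidly evolving cluster includes the relatives of primate TRIM5, a restriction factor of retroviruses. None of the 8 was called in either comparison, with 1 at an unadjusted p under 0.05 in each, and the median log2 fold change was -0.21 in both. Trim12a stood at 25.15, 23.04 and 14.60 TPM in Lyz2cre and at 18.92 TPM in CD11ccre, against 35.09, 23.82 and 28.71 TPM in WT. Trim30a, known in mice as a brake on Toll-like receptor signalling, stood at 25.25, 16.58 and 20.12 TPM in Lyz2cre and at 17.51 TPM in CD11ccre, against 26.49, 19.23 and 26.01 TPM in WT. Trim12c was the 1 gene of the cluster whose Lyz2cre libraries all lay below WT, with 7.22, 6.55 and 8.21 TPM in Lyz2cre and at 10.47 TPM in CD11ccre, against 11.91, 11.14 and 9.08 TPM in WT (log2 fold change -0.49, adjusted p = 0.151). Trim30d stood at 8.99, 4.58 and 5.83 TPM in Lyz2cre and at 6.23 TPM in CD11ccre, against 6.18, 5.31 and 7.26 TPM in WT. Trim30b had the widest relative spread of all members in WT, where it stood at 1.69, 4.94 and 0 TPM, beside 1.41, 1.01 and 0.70 TPM in Lyz2cre and at 4.52 TPM in CD11ccre. Near-identical copies leave the splitting of reads uncertain here: 29.5% of the windows of Trim34a occur in Trim34b, 20.6% of those of Trim5 and 16.9% of those of Trim12c occur in other genes.

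**Figure D4:**
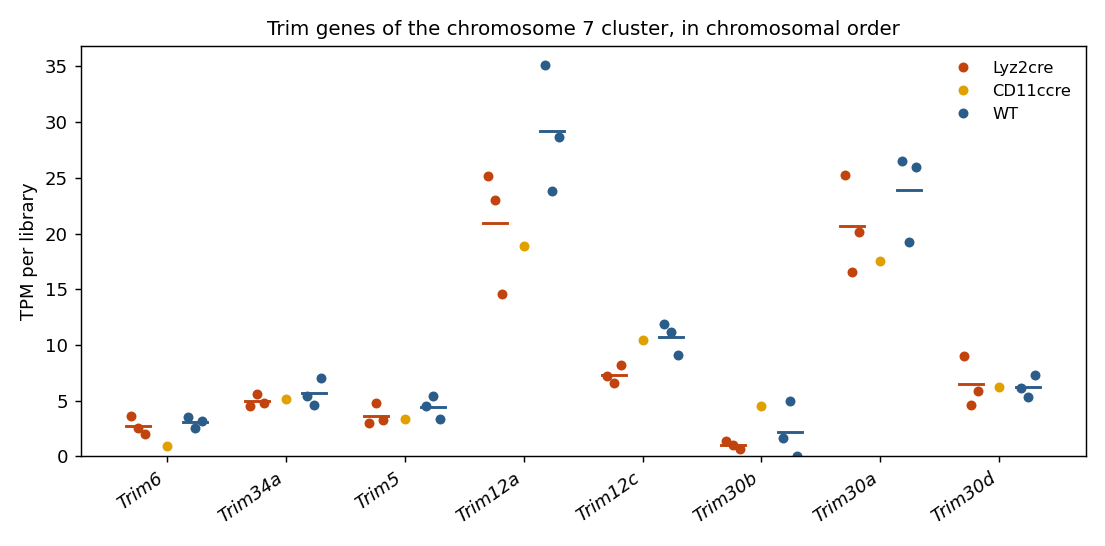
TPM per library of the 8 Trim members of the chromosome 7 cluster, in chromosomal order from left to right, with Lyz2cre in red, CD11ccre in yellow and WT in blue. Points are libraries and bars are means of 3 libraries. Trim12a and Trim30a are the most abundant, and Trim12c is the 1 gene whose Lyz2cre and WT libraries do not overlap.

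Most members of the cluster had a promoter feature that the naming rule did not use. The interferon-stimulated response element was searched on both strands as GAAA, any 2 bases and GAAA again. It was found in 12 of the 97 member promoters (12.37%), against 3.44% of all 32851 promoters, which were not limited to expressed genes as the members were. The 12 promoters belong to 11 genes, 6 of them among the 8 members of the cluster, which share ancestry and are not independent. In Trim12a and Trim34a of the cluster the match lay only after the start site. For comparison, the antioxidant response element (TGACNNNGC, where N is any base) was found in 9.28% of the member promoters, against 12.39% of all, and the E-box (CACGTG) in 6.19%, against 7.15%. The stretches with an interferon-stimulated response element upstream of the start are shown 5′ to 3′ on the strand of the gene, from RefSeq (GRCm38.p6), with the matched bases in capitals. All except Rnf146 match as the reverse complement of the motif.
Trim30a: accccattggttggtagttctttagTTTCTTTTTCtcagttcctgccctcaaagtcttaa
Trim30d: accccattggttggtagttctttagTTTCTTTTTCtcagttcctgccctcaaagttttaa
Trim5: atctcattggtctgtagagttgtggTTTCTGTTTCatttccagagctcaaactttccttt
Trim12c: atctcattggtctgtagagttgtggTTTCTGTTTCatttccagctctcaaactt
Trim26: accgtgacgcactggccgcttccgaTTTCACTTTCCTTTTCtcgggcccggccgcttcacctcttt
Rnf121: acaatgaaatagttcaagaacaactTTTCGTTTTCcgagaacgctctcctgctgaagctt
Rnf146: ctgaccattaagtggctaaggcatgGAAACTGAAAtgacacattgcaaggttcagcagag
The Trim30a and Trim30d stretches are equal in 59 of 60 bases, and those of Trim5 and Trim12c in 52 of 54. The positions are chr7:104465195-104465254 for Trim30a, chr7:104507856-104507915 for Trim30d, chr7:104288121-104288180 for Trim5, chr7:104353350-104353403 for Trim12c and chr7:102065308-102065367 for Rnf121, all on the minus strand. Trim26 is at chr17:36836961-36837026 on the plus strand and Rnf146 at chr10:29357811-29357870 on the minus strand. In the Trim26 stretch 2 matches overlap. None of these 7 genes was called in Lyz2cre or CD11ccre. Over all genes 6.76% were called in Lyz2cre and 2.89% in CD11ccre. At an unadjusted p under 0.05 in limma the shares were 24.6% and 22.3%. Of 23 interferon-induced genes of other families that were tested, limma called 0 in either comparison, with 4 at an unadjusted p under 0.05 in Lyz2cre and 2 in CD11ccre.

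Ligases of the endoplasmic reticulum (ER) membrane, which mark misfolded proteins for degradation, included 9 members. In limma 0 rose and 0 fell in Lyz2cre, with 1 at an unadjusted p under 0.05 and a median log2 fold change of -0.01. In CD11ccre 0 were called and 3 had an unadjusted p under 0.05. Rnf5 stood at 36.38, 36.24 and 32.51 TPM in Lyz2cre and at 29.71 TPM in CD11ccre, against 57.01, 34.04 and 18.51 TPM in WT, where the spread covered all other values. Rnf185, a close relative of Rnf5, stood at 27.52, 26.65 and 28.96 TPM in Lyz2cre and at 22.14 TPM in CD11ccre, against 24.26, 26.24 and 24.57 TPM in WT. Rnf103 stood at 25.02, 19.84 and 22.52 TPM in Lyz2cre and at 15.18 TPM in CD11ccre, against 23.52, 20.94 and 23.03 TPM in WT, so that only the CD11ccre value stood apart. Rnf121 stood at 14.56, 17.72 and 14.75 TPM in Lyz2cre and at 17.05 TPM in CD11ccre, against 15.92, 13.74 and 15.72 TPM in WT. Rnf145, a sterol-responsive ligase, was the gene with an unadjusted p under 0.05 in Lyz2cre, at 8.12, 8.86 and 7.61 TPM in Lyz2cre and at 5.92 TPM in CD11ccre, against 12.77, 14.57 and 9.34 TPM in WT (log2 fold change -0.51, adjusted p = 0.176). Of the windows of Rnf26 transcripts, 60.5% also occur in other genes, so its level is uncertain.

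The RING-between-RING group, whose ligases pass ubiquitin through a cysteine of their own, held 5 members. Rnf31 and Rnf216 were counted with innate sensing and not here. Of the 5, limma called 0 in both comparisons, with 0 at an unadjusted p under 0.05 in Lyz2cre and 1 in CD11ccre. Rnf19b stood at 51.45, 45.76 and 43.11 TPM in Lyz2cre and at 46.28 TPM in CD11ccre, against 46.86, 43.15 and 28.95 TPM in WT. Rnf14 averaged 21.6 TPM in Lyz2cre and 24.0 TPM in WT, and Rnf19a 9.52 TPM in Lyz2cre and 10.7 TPM in WT. Rnf144b stood at 8.69, 7.86 and 10.09 TPM in Lyz2cre and at 9.80 TPM in CD11ccre, against 6.39, 6.74 and 6.59 TPM in WT. It was one of the 6 members with all Lyz2cre libraries above WT, beside Rnf128, Rnf10, Rnf11, Rnf141 and Rnf185, and its log2 fold change of 0.38 did not pass (adjusted p = 0.224).

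The last group holds 6 ligases of ribosomes, protein quality control and cullin complexes. In limma 0 were called in either comparison, with 3 at an unadjusted p under 0.05 in Lyz2cre and 1 in CD11ccre. Rnf10, which ubiquitinates proteins of the small ribosomal subunit, stood at 88.44, 133.18 and 83.18 TPM in Lyz2cre and at 81.05 TPM in CD11ccre, against 80.29, 65.25 and 64.28 TPM in WT. All Cre libraries of Rnf10 lay above WT, the second Lyz2cre library farthest (log2 fold change 0.51, 95% interval 0.04 to 0.97, adjusted p = 0.173). Rnf7, the RING subunit of cullin 5 ligases, stood at 62.77, 80.27 and 67.53 TPM in Lyz2cre and at 79.65 TPM in CD11ccre, against 87.34, 96.17 and 83.21 TPM in WT. All Cre libraries of Rnf7 lay below WT (log2 fold change -0.34, adjusted p = 0.169), and 15.2% of its windows also occur in another gene, Emb. Rnf115 stood at 52.92, 43.50 and 44.53 TPM in Lyz2cre and at 48.59 TPM in CD11ccre, against 53.46, 35.10 and 55.58 TPM in WT. Its groups overlapped, as did those of Rnf25.

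The other 36 members had no role group. Of these 0 rose, 1 fell (Rnf113a2) and 35 were not called in Lyz2cre, with a median log2 fold change of -0.08. Rnf187 stood at 87.98, 108.90 and 93.10 TPM in Lyz2cre and at 89.01 TPM in CD11ccre, against 129.72, 125.12 and 98.34 TPM in WT. Rnf181 stood at 76.67, 62.71 and 73.74 TPM in Lyz2cre and at 60.22 TPM in CD11ccre, against 77.81, 81.84 and 73.53 TPM in WT. For both, the Lyz2cre and WT libraries overlapped. Rnf220 stood at 67.42, 62.34 and 79.35 TPM in Lyz2cre and at 55.61 TPM in CD11ccre, against 86.61, 95.85 and 48.51 TPM in WT. Trim29, reported in mouse alveolar macrophages as a brake on interferon responses, stood at 58.95, 56.15 and 51.10 TPM in Lyz2cre and at 42.61 TPM in CD11ccre, against 57.15, 53.86 and 45.94 TPM in WT. The CD11ccre value of Trim29 was the lowest of the 7, and the log2 fold changes of 0.08 in Lyz2cre and -0.28 in CD11ccre did not pass (adjusted p = 0.749 and 0.410). Rnf141 was the member besides Rnf128 and Rnf10 that was higher at an unadjusted p under 0.05, at 23.21, 24.24 and 26.45 TPM in Lyz2cre and at 23.76 TPM in CD11ccre, against 21.46, 18.30 and 16.39 TPM in WT (log2 fold change 0.38, adjusted p = 0.171).

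Rnf and Trim genes gave similar counts. Of 58 Rnf members 1 rose and 1 fell in Lyz2cre, with 12 at an unadjusted p under 0.05, and of 37 Trim members 0 rose and 1 fell, with 5 at an unadjusted p under 0.05. The median log2 fold change was -0.15 in each, beside -0.16 over all genes. Of all genes 6.76% were called in Lyz2cre, and 24.6% had an unadjusted p under 0.05 in limma. Replicates of the members were at least as close as those of other genes, with a median coefficient of variation of 12.7% in Lyz2cre and 17.0% in WT, against 16.1% and 19.6% over all genes tested. By position, 16 members each lay on chromosomes 7 and 11.

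RING ligases with other names gave 2 calls. Of 55 tested, 0 rose and 2 fell in Lyz2cre, Mid1 and Mylip, with 13 at an unadjusted p under 0.05 and a median log2 fold change of -0.19. Over all genes 6.76% were called and 24.6% had an unadjusted p under 0.05 in limma, with a median of -0.16. In CD11ccre 2.89% of all genes were called. The same shares are the background for the lists that follow. Mid1, a microtubule-bound ligase of tripartite motif structure that the name rule does not catch, stood at 3.03, 2.15 and 1.24 TPM in Lyz2cre and at 2.24 TPM in CD11ccre, against 10.02, 12.26 and 14.86 TPM in WT. Every Cre library lay far below WT, with log2 fold changes of -2.12 ± 0.28 (SE, adjusted p = 0.00888) in Lyz2cre and -2.03 (adjusted p = 0.0465) in CD11ccre. The Lyz2cre call ended only without WT replicate 2 (0.0504), and the CD11ccre call ended under 13 of 17 alternatives. Mylip, the ligase of the LDL receptor, stood at 14.14, 10.97 and 12.17 TPM in Lyz2cre and at 10.17 TPM in CD11ccre, against 19.49, 21.44 and 22.03 TPM in WT (log2 fold change -0.72, adjusted p = 0.0393 in Lyz2cre). Of 26 HECT and RBR ligases tested, limma called 0 in Lyz2cre, with 4 at an unadjusted p under 0.05, and 1 in CD11ccre (Ube3a, -1.91, adjusted p = 0.0388). Of 31 deubiquitinases tested, Usp48 fell in Lyz2cre (-0.65, adjusted p = 0.0335) and Tnfaip3, which encodes A20, in CD11ccre (-1.44, adjusted p = 0.0423). The calls of Mylip, Usp48, Ube3a and Tnfaip3 ended under 12, 12, 11 and 12 alternatives, including median-of-ratios scaling for each and each of the 6 Lyz2cre and WT libraries left out in turn for all except Ube3a, which held without WT replicate 1.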

How the data were processed

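Poly(A) RNA-seq was made from sorted mouse alveolar macrophages in 7 libraries (Lyz2cre n = 3, CD11ccre n = 1, WT n = 3), grouped by their titles. Single-end reads of 75 bases came from a strand-specific kit, per the labels' protocols. Reads were handled with RSEM 1.3.1, STAR 2.7.0d and cutadapt 2.3 on mm10, per the submitters' processing notes. The annotation release and strand setting were not found in the labels. The authors deposited TPM for 47643 genes, given to 2 decimals and summing to 1000000 per library. Depth is therefore unknown and no counting interval is given.

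The members, the role groups and the other lists were chosen with earlier results of these data known. The 11397 genes with a mean of at least 1 TPM were transformed to log2(TPM + 1) and tested in limma 3.58.1 (R 4.3.3). A single model held a term for each genotype over the 7 libraries, with a mean-variance trend, 4 residual degrees of freedom and 3.35 prior ones. Calls needed a two-sided p, Benjamini-Hochberg adjusted across the 11397 genes, under 0.05. The fit was tested on simulated data. Log2 fold changes understate the changes of low genes, and values given as fold are ratios of mean TPM.

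Named genes were Siah1a and Siah2, called members, the 5 largest uncalled changes, the 10 highest levels, up to 4 highest levels per role group, the 3 genes on each side of the minimum and called genes of the other lists. Rnf145, Rnf135, Rnf31, Rnf141, Rnf113a1, Trim29, Trim33 and Trim24 and the genes between the Cre lines were chosen after their values were seen. The values of 1 member are not reported here.

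Coordinates, exon overlaps and 75-base transcript windows (sense strand) came from GENCODE M21 (GRCm38), matched to 47224 of 47643 gene IDs and to all 95 members. Promoters came from RefSeq (GRCm38.p6).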

Additional observations from a re-analysis of the deposited data

Results flagged for a closer look

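Rnf185, a ligase of the ER membrane, had its Cre lines on opposite sides of WT. Over all genes, 7.45% had all Lyz2cre libraries above all WT libraries and 50.5% had the CD11ccre library below them. The share of all genes with both was not counted. Rnf185 stood at 27.52, 26.65 and 28.96 TPM in Lyz2cre, all above WT (24.26, 26.24 and 24.57 TPM), while the CD11ccre library stood at 22.14 TPM, below all WT libraries. The limma test of the difference between the Cre lines gave a log2 fold change of -0.31 (CD11ccre over Lyz2cre) and did not pass (adjusted p = 0.866).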

How the results depend on the processing

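The alternatives were 18 for Lyz2cre and 17 for CD11ccre against WT. The 1 member called higher in Lyz2cre became 0 with no filter on low values, without the variance trend, with the replicate block and without any 1 Lyz2cre or WT library (0 to 0). The 2 called lower became 1 with no filter, median-of-ratios scaling, quantile normalization, without Ftl1, Fth1, Chil3 and Lyz2, without the trend and with the replicate block. They became 6 with protein-coding genes only, 3 with robust fitting, 3 without the CD11ccre library, and 0 to 1 without single Lyz2cre or WT libraries. The 1 called lower in CD11ccre became 2 with protein-coding genes only, 0 without the trend, 0 with the replicate block, and 0 to 1 without single Lyz2cre or WT libraries. The members' median minus that of all genes was 0.01 in Lyz2cre and -0.01 in CD11ccre, and with no filter -0.07 and -0.14. In CD11ccre the sign of Trim47 turned with median-of-ratios scaling (0.11), quantile normalization (0.09), without the 4 abundant genes (0.02) and without WT replicate 1 (0.01; -0.40 to 0.01 over the left-out libraries), and with median-of-ratios scaling that of Rnf167 (0.01) and Rnf130 (0.07) turned. Over all genes the 771 calls in Lyz2cre became 342 with no filter, 1171 with protein-coding genes only, 436 without the trend, 390 with the block, 203 to 441 without single Lyz2cre or WT libraries and 778 without the CD11ccre library; the 329 in CD11ccre became 493 with no filter, 688 with protein-coding genes only, 122 without the trend, 201 with quantile normalization, 217 without the abundant genes, 21 with the block and 23 to 170 without single Lyz2cre or WT libraries. Fewer residual degrees of freedom remain with the block or a library left out. Deviations of same-numbered WT and Lyz2cre libraries correlated at -0.015, 0.043 and 0.066. WT replicates 2 and 3 correlated best with the Lyz2cre library of the same number, and WT replicate 1 with Lyz2cre replicate 2 (0.06). All these correlations were weak, from -0.098 to 0.066, and no pairing by number was used in the main fit. Other causes of changed calls were not tested. A planned search of the members' proteins for a RING signature was not run.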
